A study of Mus musculus with 12 samples.

Results

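The 10 genes followed here in the descending aorta belong to corticosteroid signalling: the glucocorticoid receptor gene Nr3c1, the mineralocorticoid receptor gene Nr3c2, the activating enzyme gene Hsd11b1, and the response genes Fkbp5, Tsc22d3, Zbtb16, Sgk1, Klf9, Mt1 and Mt2. Members were taken as the gene probes whose name on the array equals one of these symbols, which gave 12 probes on 21 spots among 55681 gene probes on 59305 spots. All 12 probes passed the filter on dim probes, and each gene was represented by its brightest probe, so that 10 of the 16853 genes tested are members. The RNA came from male C57BL/6 mice aged 6 months (6 mice) or 20 months (6 mice), with 1 Agilent 1-colour array per mouse. No mouse was treated, no allele was altered and both ages were kept on standard chow. Vessels had been flushed, stripped of surrounding fat and snap frozen. The comparison asks how expression in the vessel wall differs with age.

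Corticosterone, the main glucocorticoid of the mouse, enters cells freely and binds the glucocorticoid receptor, which waits in the cytoplasm in a complex of heat shock proteins and co-chaperones, moves to the nucleus and binds palindromic response elements in DNA. The mineralocorticoid receptor binds the same hormone as well as aldosterone, and the enzyme 11-beta-hydroxysteroid dehydrogenase type 1 regenerates active corticosterone from its inert keto form inside cells. In the vessel wall both receptors are known to act in smooth muscle and endothelium on tone, salt handling and inflammation. Hormone levels were not measured here. The response genes are read as RNA, and in RNA of a whole vessel fewer cells of a type and less RNA per cell cannot be told apart.

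Each of 3 slides carried 2 arrays from young and 2 from old mice, slide 3 was scanned on a later day, and the share of gene probes that the scanner software marked as well above background ran from 47.5% to 55.8%. All 10 smooth muscle markers and all 10 endothelial markers of the lists used here were measured. So were all 12 white fat markers and all 12 brown fat markers, although the vessels had been stripped of fat. Heart muscle markers (12 of 13 measured) were high in replicate 1 of both ages, where their mean lay 1.92 (6 months) and 3.06 (20 months) above the 12-array mean on the log2 scale, and 6 months replicate 4 was high in T and NK cell markers, by 1.56 on the same scale. All 20-month arrays lay in the same column of their slides and none of the 6-month arrays did, so column and age cannot be told apart.

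Promoter sequences are shown for 3 members: the metallothionein genes Mt1 and Mt2, whose signals moved together, and Sgk1, the only member with a complete palindromic element among the 8 searched. A match to such letters is a description, not a binding site. They are RefSeq sequences of build GRCm38.p6, all on the + strand, 5′ to 3′. Those of Mt1 and Mt2 run from 250 bases before the start site of the table up to it, and that of Sgk1 is a stretch of 100 bases around the palindrome of 1 of its 6 windows. Capitals mark the metal response element core, searched as TGCGCNC or TGCACNC on both strands, in Mt1 and Mt2, and the palindrome of AGAACA, any 3 bases and TGTTCT in Sgk1.
Mt1 (chr8:94178839-94179088): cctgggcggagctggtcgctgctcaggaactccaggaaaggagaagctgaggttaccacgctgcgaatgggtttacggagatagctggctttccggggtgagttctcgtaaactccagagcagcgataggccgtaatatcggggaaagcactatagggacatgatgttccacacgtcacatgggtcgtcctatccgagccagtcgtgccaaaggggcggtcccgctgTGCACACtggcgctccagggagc
Mt2 (chr8:94172368-94172617): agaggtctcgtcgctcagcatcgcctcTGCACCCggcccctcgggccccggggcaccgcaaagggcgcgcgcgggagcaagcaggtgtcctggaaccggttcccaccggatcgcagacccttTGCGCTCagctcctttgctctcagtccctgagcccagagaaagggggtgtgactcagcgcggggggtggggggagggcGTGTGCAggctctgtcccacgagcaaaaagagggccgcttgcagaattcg
Sgk1 (chr10:21993661-21993760): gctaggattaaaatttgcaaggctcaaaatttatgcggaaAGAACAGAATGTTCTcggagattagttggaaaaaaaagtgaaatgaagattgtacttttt

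The starts of Mt2 and Mt1 lie 6471 bases apart on the same strand. In the windows of 250 bases before and 50 bases after the start, Mt1 held 3 matches to the metal response core and Mt2 held 4, where 1.97% of 32851 windows of all genes held at least 3 and 0.517% at least 4. The capitals above show 1 of the 3 in Mt1 and 3 of the 4 in Mt2, since the others lie after the start. The start sites are those of the table, and whether they are the ones used in the aorta is not known here, so that positions and counts hold for these windows alone. Nr3c2, Hsd11b1 and 1 of the 6 Sgk1 windows held 1 match each, and 25.7% of all windows held at least 1. The full palindrome stood in 3 of the 32851 windows, or 0.00913%, and 1 of these was the Sgk1 window, at positions -189 to -175 from that start. Its arm AGAACA alone, on either strand, was far more frequent, at 18.97% of windows, and a palindrome counts as 2 such arms. Arms without a palindrome stood in 2 further Sgk1 windows and in 1 of the 3 Tsc22d3 windows. The windows of Fkbp5 and Klf9 held none of these letters, which says nothing of elements outside the window. Nr3c1 and Zbtb16 were not searched.

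Levels are given below as log2 signal relative to the 75th percentile of the same array, so that a level of 0 is that percentile, and changes are 20 months minus 6 months on the log2 scale. None of the 10 members passed the threshold of an adjusted p under 0.05 (limma with Benjamini-Hochberg adjustment over all genes), where 53 of 16853 genes did, or 0.314%. None of the 10 had an unadjusted p under 0.05 either, against 7.99% of all genes, and in none did the values of the ages lie apart without overlap, against 0.813%. Changes were positive in 5 members and negative in 5, where 43.9% of all genes had a positive change. The median was -0.01 beside -0.02 over all genes. With 10 members, a count of 0 called lies near what the share over all genes would give.

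**Figure D1:**
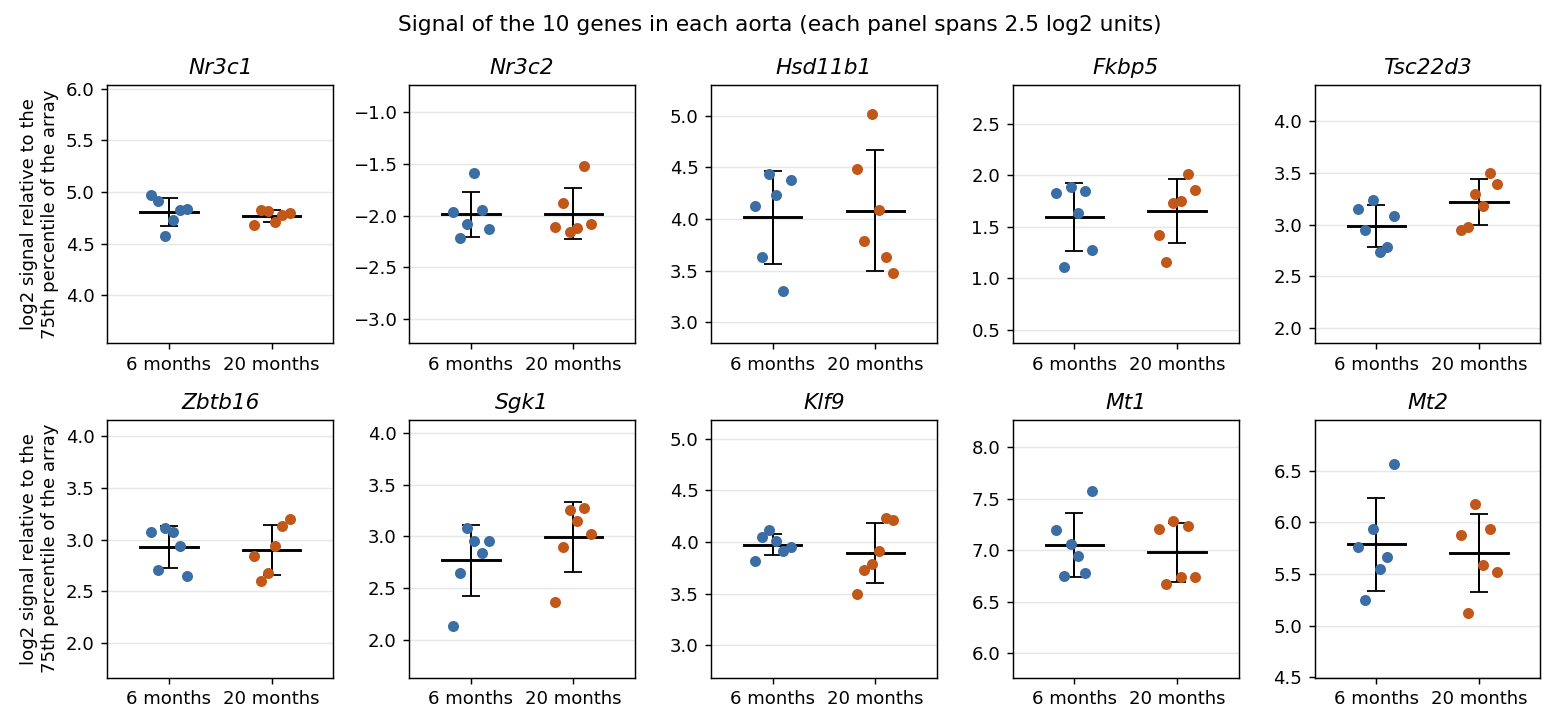
Log2 signal relative to the array's 75th percentile (vertical axis, 2.5 log2 units in every panel) of the 10 genes in the 6 aortas at 6 months and the 6 at 20 months; points are mice, the horizontal line is the mean and the bar 1 SD on each side. The ages overlap in every panel, and over both ages the residual SD is narrowest for Nr3c1 (0.106) and widest for Hsd11b1 (0.521).

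Nr3c1, which encodes the glucocorticoid receptor, had the smallest residual SD of the members. At 6 months its signal ran from 4.58 through a median of 4.83 to 4.97, and at 20 months from 4.69 through 4.79 to 4.82. The 20-month values lay inside the 6-month range, whose ends were replicates 3 (low) and 1 (high). The change was -0.04 ± 0.07 (SE, n = 6 and 6, adjusted p = 0.913 by limma), with a 95% interval of 0.871 to 1.09-fold. The residual SD between mice, 0.106, lay at the 8.54th percentile of all genes. A second, dimmer probe of Nr3c1 averaged 0.89 ± 0.10 (SD) at 6 months and 0.83 ± 0.13 at 20 months, a change of -0.06 ± 0.08 (SE). Replicate 1 was the highest 6-month and the lowest 20-month mouse by both probes. The lowest 6-month mouse was replicate 3 by the brighter probe and replicate 2 by the dimmer one. The highest 20-month mouse was replicate 2 by the brighter probe and replicate 5 by the dimmer one. The correlations of Nr3c1 given below use the brighter probe, and the order of the mice is not the same by the other.

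Nr3c2, which encodes the mineralocorticoid receptor, was read by a probe at chr8:79766370-79766429 (mm9, the build of the array's positions) that was well above background on all 12 arrays. Its signal ran from -2.22 through -2.02 to -1.59 at 6 months and from -2.16 through -2.10 to -1.52 at 20 months. The highest value of each age stood in 6 months replicate 4 and 20 months replicate 5, where the share of probes above background was also highest. The mean was -1.99 ± 0.22 (SD) at 6 months and -1.98 ± 0.25 at 20 months, and the change was 0.01 ± 0.13 (SE, adjusted p = 0.993 by limma). Across the 12 arrays r of Nr3c2 with that share was 0.880 (unadjusted permutation p = 0.00439, adjusted p = 0.141 over 130 relations), but rho was 0.448 (permutation p = 0.148), and r was 0.207 without the 2 arrays farthest from the median of that share. The r therefore rests on those arrays.

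Hsd11b1, the gene of the corticosterone-regenerating enzyme (probe at chr1:195048169-195048228, mm9), had the largest residual SD of the members. Its signal ran from 3.31 through 4.18 to 4.43 at 6 months and from 3.47 through 3.94 to 5.02 at 20 months. At 20 months the highest mouse, replicate 3, stood 2.92-fold above the lowest, replicate 6, and the ranges of the ages overlapped over most of their length. The means were 4.02 ± 0.45 (SD) and 4.08 ± 0.58, and the change was 0.07 ± 0.27 (SE, adjusted p = 0.965 by limma). The 95% interval, 0.700 to 1.57-fold, leaves room for changes of either sign, and the residual SD of 0.521 lay at the 94.8th percentile of all genes.

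Fkbp5 encodes the co-chaperone FKBP51, which the receptor induces and which in turn lowers the receptor's affinity for hormone. Its probe lies at chr17:28536060-28536119 (mm9). Fkbp5 ran from 1.11 through 1.73 to 1.88 at 6 months and from 1.16 through 1.74 to 2.01 at 20 months. Replicate 2 was the lowest mouse at both ages, and the ranges nearly coincided. The change was 0.06 ± 0.17 (SE, adjusted p = 0.950 by limma), from 1.597 ± 0.33 (SD) to 1.65 ± 0.31.

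Tsc22d3 encodes GILZ, a leucine zipper protein that mediates anti-inflammatory actions of glucocorticoids (probe at chrX:137074094-137074153, mm9). It ran from 2.74 through 3.01 to 3.24 at 6 months and from 2.94 through 3.24 to 3.499 at 20 months. Among the 20-month mice 3 lay above the highest 6-month mouse, and the other 3 lay within the 6-month range. The change was the largest of the 10, together with that of Sgk1, at 0.23 ± 0.12 (SE, unadjusted p = 0.0812, adjusted p = 0.680 by limma), with a 95% interval of 0.978 to 1.40-fold. It was 0.53 on slide 2 and 0.28 on slide 3, but -0.13 on slide 1.

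Sgk1 encodes a kinase that raises sodium transport and is a target of both receptors (probe at chr10:21719507-21719566, mm9). Its signal ran from 2.13 through 2.90 to 3.08 at 6 months and from 2.37 through 3.08 to 3.28 at 20 months. The lowest mouse at both ages was replicate 1, and in both of these mice the heart muscle markers were high. The change was 0.23 ± 0.18 (SE, adjusted p = 0.770 by limma), from 2.77 ± 0.34 (SD) to 2.99 ± 0.34, and on the slides it was -0.23, 0.19 and 0.72. Without 20 months replicate 1 it was 0.35 (adjusted p = 0.385 by limma), without 6 months replicate 1 it was 0.10 (0.899), and without both of these and 6 months replicate 4 it was 0.24 (0.518). The r of Sgk1 with the heart muscle mean was -0.789 and rho -0.643 (permutation p = 0.00541 and 0.0273, adjusted p = 0.141 for r over 130 relations), and r was -0.279 without the 2 arrays farthest from the median of that mean. The heart muscle means ran from -1.19 to 1.92 at 6 months and from -1.26 to 3.06 at 20 months. Their part in the Sgk1 values was not tested.

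Zbtb16 and Klf9 encode zinc finger transcription factors that glucocorticoids induce in many tissues. Zbtb16 (probe at chr9:48462419-48462478, mm9) ran from 2.65 through 3.01 to 3.11 at 6 months and from 2.59 through 2.89 to 3.20 at 20 months. Its change was -0.03 ± 0.12 (SE, adjusted p = 0.965 by limma), and the 20-month range enclosed the 6-month range. Klf9 (probe at chr19:23240410-23240469, mm9) ran from 3.82 through 3.98 to 4.11 at 6 months and from 3.496 through 3.85 to 4.23 at 20 months. Here too the older mice enclosed the younger, with an SD of 0.29 at 20 months against 0.10 at 6 months, a difference in spread that was not tested. The change of Klf9 was -0.08 ± 0.12 (SE, adjusted p = 0.894 by limma), and by slide it was -0.47, 0.11 and 0.13. A second Klf9 probe was dim, detected in 5 of 6 young and 3 of 6 old mice, and changed by -0.17 ± 0.33 (SE).

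Mt1 and Mt2 encode metallothioneins, small cysteine-rich proteins that bind zinc and copper and are induced by metals and by glucocorticoids. Mt1 (probe at chr8:96704165-96704224, mm9) ran from 6.75 through 7.003 to 7.57 at 6 months and from 6.67 through 6.97 to 7.28 at 20 months. Mt2 (probe at chr8:96697371-96697430, mm9) ran from 5.24 through 5.71 to 6.57 at 6 months and from 5.12 through 5.73 to 6.18 at 20 months. For both genes replicate 2 was the lowest mouse at each age, and the highest were 6 months replicate 6 and 20 months replicate 3. Both of these highest mice were on slide 3, which was scanned on a later day. On slide 3 Mt1 ran from 7.20 to 7.57 and Mt2 from 5.76 to 6.57, and on the other slides they reached at most 7.20 and 5.94. The part of the slide in these levels was not tested. The spread of Mt2 at 6 months was 2.504-fold from lowest to highest mouse. The changes with age were -0.07 ± 0.16 for Mt1 and -0.08 ± 0.21 for Mt2 (SE, adjusted p = 0.929 and 0.941 by limma), with 95% intervals of 0.750 to 1.21-fold and 0.684 to 1.30-fold.

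**Figure D2:**
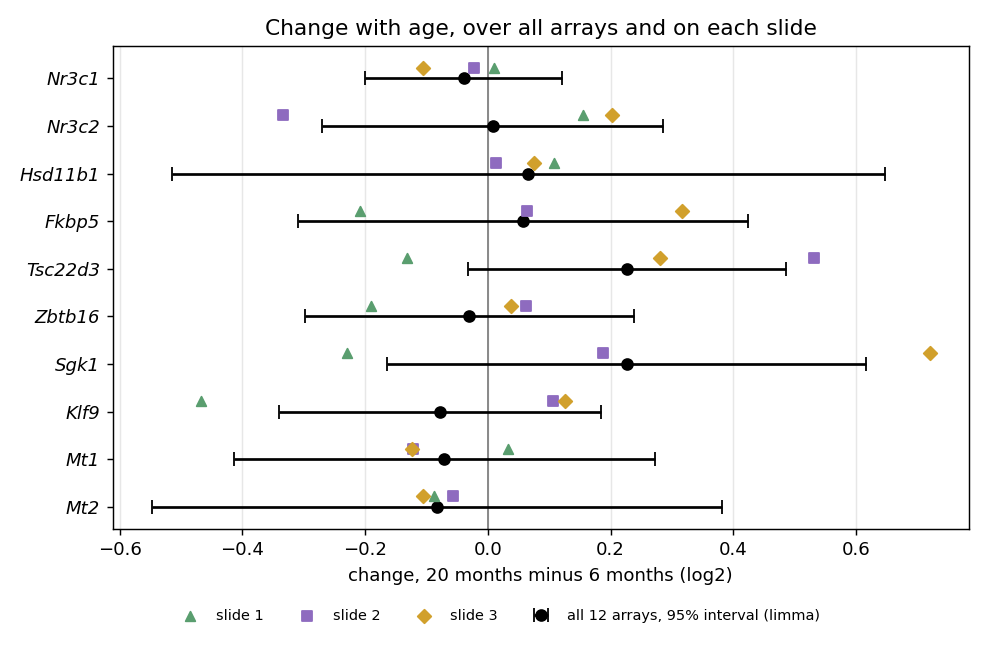
Change of each gene from 6 to 20 months in log2 units (horizontal axis) over all 12 arrays with its 95% interval from limma (black) and on each of the 3 slides (coloured symbols, 2 arrays of each age per slide). Every interval includes 0, and the slides disagree in sign for 8 of the genes, Sgk1 running from -0.23 to 0.72.

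The second question was whether the members rise and fall together from mouse to mouse. Over the 12 arrays the 45 pairs of members had a median r of 0.05, and 26 were positive. After Benjamini-Hochberg adjustment over the 45 pairs (two-sided permutation test, 100000 resamples), 2 pairs had an adjusted p under 0.05, and 4 had an unadjusted p under 0.05. How many pairs among all genes reach such an r was not counted, so these counts cannot be read as particular to the members. By its brighter probe, the receptor gene Nr3c1 was in none of the 4 pairs with an unadjusted p under 0.05. Its r by that probe was negative with 8 of the other 9 members, the lowest being -0.42 with Sgk1 (rho = -0.448, permutation p = 0.172 and 0.147, adjusted p = 0.612 and 0.497). The sign depends on the probe. By the dimmer probe Nr3c1 rose with Fkbp5, Zbtb16, Klf9 and Tsc22d3, and these relations were not tested.

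**Figure D3:**
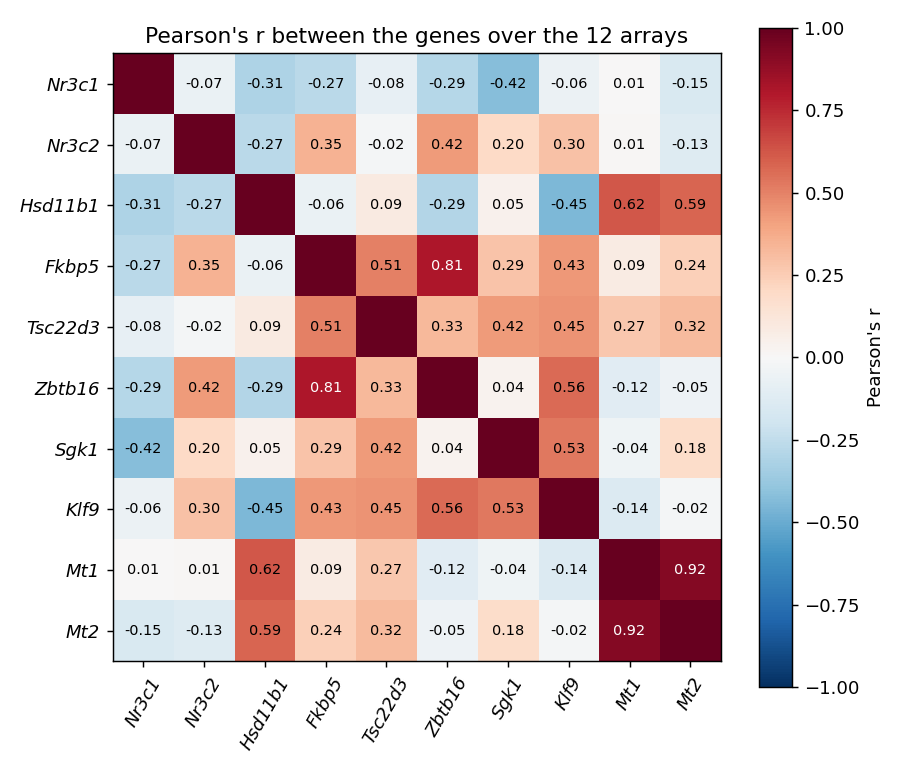
Pearson's r over the 12 arrays for each pair of the 10 genes, in colour from -1 (blue) to 1 (red) and as printed values. Mt1 with Mt2 (0.92) and Fkbp5 with Zbtb16 (0.81) are the highest. The brighter probe of Nr3c1, the one shown, has no r above 0.01 with another member. The dimmer probe of Nr3c1, not shown, rose with some of them.

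Mt1 and Mt2 were the closest pair, with r = 0.918 (permutation p = 1e-05, the smallest the resamples can give, adjusted p = 0.00045) and rho = 0.930 (p = 4e-05). The r was 0.918 within the 6-month mice and 0.920 within the 20-month mice. With age and slide removed it was 0.898, and without slide 1, 2 or 3 it was 0.916, 0.968 or 0.808. Each slide holds 4 arrays, too few for an r of its own. Without the 2 arrays farthest from the median of Mt1 it was 0.845, with a permutation p of 0.00219 that no longer passed the adjustment over 45 pairs (adjusted p = 0.0985). In each of the 12 fits that left out 1 array the adjusted p stayed at or below 0.0171. The probes of both genes are 60 bases long, share no run longer than 7 bases and match at no more than 24 positions in any ungapped alignment. Yet 0.136% of all other genes had an r to Mt1 at least as high, and 0.0831% to Mt2.

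Fkbp5 and Zbtb16 were the other pair, with r = 0.811 (permutation p = 0.00206, adjusted p = 0.0463) and rho = 0.853 (p = 0.00088, adjusted p = 0.0198). The r was 0.881 within the 6-month mice, 0.785 within the 20-month mice and 0.832 with age and slide removed. Of all other genes, 0.0415% had an r to Fkbp5 at least as high and 0.0653% to Zbtb16. The adjustment decides this call: in 11 of the 12 sets that left out 1 array the adjusted p rose above 0.05, to as much as 0.146, while r stayed between 0.756 and 0.911. It stayed under 0.05 without 20 months replicate 3, a mouse with low Zbtb16 (2.68) beside a middling Fkbp5 (1.73). Without the 2 arrays farthest from the median of Fkbp5, r was 0.718.

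**Figure D4:**
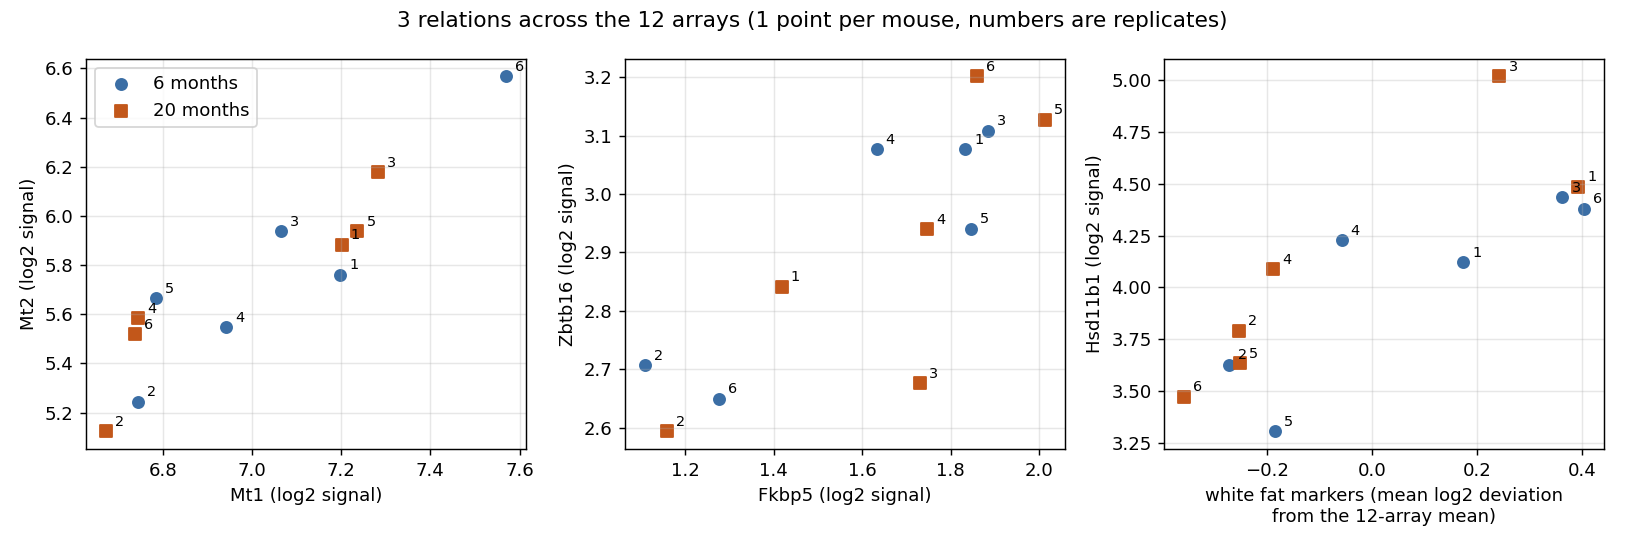
Each point is 1 mouse (circles 6 months, squares 20 months, numbers are replicates): Mt2 against Mt1, Zbtb16 against Fkbp5, and Hsd11b1 against the mean of the white fat markers, all in log2 units. The ages intermingle along all 3 slopes, and 20 months replicate 3 lies off the slope of Zbtb16 on Fkbp5.

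The highest r of Hsd11b1 with other members were those with the metallothioneins, 0.624 with Mt1 and 0.585 with Mt2 (permutation p = 0.0301 and 0.0447, adjusted p = 0.452 and 0.503, rho 0.629 and 0.594), and neither passed the adjustment. Its r with Klf9 was -0.45, with Zbtb16 -0.29 and with Fkbp5 -0.06. Hsd11b1, Mt1 and Mt2 also had the highest r of the members with white fat markers. Over the 12 arrays r with the mean of the 12 white fat markers was 0.814 for Hsd11b1, 0.776 for Mt1 and 0.744 for Mt2 (rho 0.818, 0.762 and 0.762, permutation p for r 0.00151, 0.00461 and 0.00381). Over all 130 relations of members with marker lists these had an adjusted p of 0.141. Without the 2 arrays farthest from the median of the fat marker mean, r was 0.814, 0.675 and 0.671. The white fat marker mean ran from -0.27 to 0.40 at 6 months and from -0.36 to 0.39 at 20 months around its 12-array mean. Its 12 genes stood well above background on all 12 arrays. None was called with age by limma, but 11 of the 12 changes were negative (median -0.16). With the mean of the brown fat markers, r was 0.467 for Hsd11b1, 0.572 for Mt1 and 0.612 for Mt2 (adjusted permutation p = 0.587, 0.510 and 0.510). Without the 2 arrays farthest from the median of that mean, these were 0.356, 0.307 and 0.258. The part of fat in the values of Hsd11b1, Mt1 and Mt2 was not tested.

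Among the remaining response genes, Zbtb16 with Klf9 (r = 0.563, rho = 0.657), Sgk1 with Klf9 (r = 0.527, rho = 0.476) and Fkbp5 with Tsc22d3 (r = 0.506, rho = 0.594) were the next pairs, with permutation p of 0.0565, 0.0788 and 0.0937 and adjusted p of 0.508, 0.591 and 0.602. The r of Sgk1 with Klf9 rests on few arrays: it was 0.137 without the 2 farthest from the median of Sgk1 and 0.330 without 20 months replicate 1. Within the ages r often lay apart. Tsc22d3 with Klf9 had r = 0.08 at 6 months and 0.90 at 20 months, Fkbp5 with Tsc22d3 0.12 and 0.93, and Nr3c1 with Sgk1 -0.81 and 0.56. The difference in r between the ages was tested for all 45 pairs with an exact two-sided permutation test over 924 splits, and none passed. The smallest exact p was 0.039, for Fkbp5 with Klf9 (-0.22 at 6 months, 0.80 at 20 months), which became 0.584 after adjustment.

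Around the receptor, 16 of 16 genes of its chaperone and cofactor machinery were measured and none passed the threshold by limma. Of these, 2 had an unadjusted p under 0.05, against 7.99% of all genes. The list's median change was 0.02 beside -0.02 over all genes. The smallest p belonged to Stip1, the co-chaperone that links Hsp70 to Hsp90, at 0.20 ± 0.07 (SE, adjusted p = 0.400 by limma), and to Hspa8, the constitutive Hsp70, at 0.19 ± 0.08 (adjusted p = 0.535). Of 9 genes of steroid supply and export 6 were measured, with none called and 5 negative. Akr1c18 changed by 0.15 ± 0.09 and Srd5a1, a steroid reductase, by -0.17 ± 0.14 (adjusted p = 0.718 and 0.776 by limma).

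A further 40 known glucocorticoid response genes served as a wider readout, of which 37 were measured. None was called by limma, and 1 had an unadjusted p under 0.05, against 7.99% of all genes. Changes were positive in 19 and negative in 18, where 43.9% of all genes were positive, and the median was 0.01. Anxa1, the anti-inflammatory annexin, had the smallest p, at 0.28 ± 0.09 (SE, adjusted p = 0.387), followed by Bcl6, a transcriptional repressor, at 0.45 ± 0.21 (adjusted p = 0.645). Of 12 genes responsive to mineralocorticoids 10 were measured and 1 was called, against 0.314% of all genes. This list was chosen with earlier results of these data known, so the count is no separate readout of mineralocorticoid action. The called gene, Pgf (placental growth factor), rose from -1.72 ± 0.25 to -0.86 ± 0.30 (SD), a change of 0.86 ± 0.15 (SE, adjusted p = 0.0320 by limma). With 1 array left out the change of Pgf stayed between 0.76 and 0.93, but the adjusted p rose above 0.05, to at most 0.0870, in 9 of 12 sets, and stayed below it without 6 months replicate 4, 6 months replicate 6 or 20 months replicate 1. With no filter on dim probes, where more genes were tested, the adjusted p of Pgf was 0.0886, and with normexp background correction its change was 0.52.

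Of the 370 relations between the 10 members and these 37 response genes, 43 had an unadjusted permutation p under 0.05 and 3 an adjusted p under 0.05. How many of all genes reach such an r with the members was not counted, so these counts cannot be read as particular to response genes. Outside this list, Mt1 had r = -0.847 with Ncor1 of the receptor machinery. Tsc22d3 rose with Map3k6, a stress kinase gene, at r = 0.895 (permutation p = 0.00011, adjusted p = 0.0296, rho = 0.867 with adjusted p = 0.0715). It was 0.767 within the 6-month mice, 0.941 within the 20-month mice, 0.813 without the 2 arrays farthest from the median of Tsc22d3 and 0.805 with age and slide removed. Mt1 and Mt2 fell as Cdkn1c rose, the gene of the cell cycle inhibitor p57, at r = -0.871 and -0.841 (permutation p = 0.00022 and 0.00024, adjusted p = 0.0296 for both), while rho, at -0.797 and -0.867, did not pass (adjusted p = 0.139 and 0.0715). Within the 6-month and the 20-month mice r with Cdkn1c was -0.970 and -0.852 for Mt1, and -0.863 and -0.903 for Mt2. With age and slide removed it was -0.853 for Mt1 and -0.886 for Mt2. Without the 2 arrays farthest from the median of the metallothionein, r was -0.800 and -0.775. Without slide 1 it was -0.896 and -0.857, without slide 2 -0.915 and -0.857, and without slide 3 -0.512 and -0.646. These 3 calls sit at the edge of the adjustment. With 1 array left out at a time, Tsc22d3 with Map3k6 stayed under an adjusted p of 0.05 in 5 of 12 sets (those without 6 months replicate 1, 2, 3 or 6 or 20 months replicate 4), Mt2 with Cdkn1c in 3 (6 months replicate 1 or 3, or 20 months replicate 4) and Mt1 with Cdkn1c in 1 (20 months replicate 4). Without the 3 arrays with heart muscle or T cell markers, each had an adjusted p of 0.144 by permutation. There r was 0.873 for Tsc22d3 with Map3k6, and -0.898 for Mt1 and -0.862 for Mt2 with Cdkn1c.

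Clock genes are relevant because corticosterone follows a daily rhythm, several members are rhythmic, and the hour of tissue collection was not given in the sources used here. Of 19 clock genes 18 were measured and none was called with age by limma. Ciart changed by 1.36 ± 0.69 (SE, adjusted p = 0.675) and was dim, detected in 2 of 6 young and 5 of 6 old mice, and Nr1d1 by 0.31 ± 0.17 (adjusted p = 0.680). Of 180 relations between members and clock genes, 22 had an unadjusted permutation p under 0.05 and 1 passed the adjustment. How many of all genes reach such an r with the members was not counted, so these counts cannot be read as particular to clock genes. By its brighter probe, Nr3c1 rose with Clock, at r = 0.881 (permutation p = 1e-04, adjusted p = 0.018, rho = 0.895 with adjusted p = 0.0207). Genes outside the list lay closer to Nr3c1, such as Cpne3 at r = 0.947. The r with Clock was 0.935 within the 6-month mice and 0.564 within the 20-month mice. It was 0.805 without the 2 arrays farthest from the median of Nr3c1 and 0.877 with age and slide removed. The adjusted p rose above 0.05, to at most 0.108, without 6 months replicate 1, 6 months replicate 2 or 20 months replicate 1. Without the 3 arrays with heart muscle or T cell markers r of Nr3c1 with Clock was 0.832, with an adjusted p of 0.193 by permutation, and no clock relation passed.

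The metal side of the metallothioneins was examined through 9 measured genes of 11, the zinc transporters, the metal-responsive factor Mtf1 and antioxidant genes among them. None was called with age by limma. Slc39a8, a zinc importer, changed by -0.41 ± 0.20 (SE, adjusted p = 0.664) and Slc39a10 by -0.22 ± 0.11 (adjusted p = 0.670). None of the 90 relations between members and these genes passed the adjustment, and 7 had an unadjusted permutation p under 0.05. How many of all genes reach such an r was not counted here either, so the 7 cannot be read as particular to metal genes. The genes of stress and tissue handling, of which 17 of 21 were measured, had the largest median change of the lists of genes around the receptor, 0.27. Of these 17 genes 14 were positive, where 43.9% of all genes were, and none was called. Marker lists of other cells also differed in sign by age, with none of their genes called by limma. All 14 macrophage markers (median 0.30, 6 with an unadjusted p under 0.05) and all 7 red cell markers (0.45, 1 such) were positive. All 6 mesothelial markers (-1.74, 5 such), 11 of 12 brown fat markers (-0.26, 2 such) and 11 of 12 white fat markers (-0.16, 0 such) were negative. The shares over all genes were 43.9% positive and 7.99% with an unadjusted p under 0.05. In lists this short, counts of 1 or 2 lie near the latter share. The part of these cells in the values of the members and of the lists around the receptor was not tested. In the stress and handling list the smallest p belonged to Hsph1, a heat shock protein gene (0.45 ± 0.15), and Ier3, an immediate early gene (0.51 ± 0.19).

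The genes whose signal was most like each member's over the 12 arrays were looked up among all 16853 genes with the other members left out, as a description without a test. For Nr3c1 they were Cpne3 (r = 0.947), Zmat2 (0.931) and the nuclear receptor coactivator gene Ncoa3 (0.918). For Nr3c2 they were H1f6 (0.972), Uvssa (0.920) and Cirbp (0.899), and for Hsd11b1 Slc25a10 (0.957), Park7 (0.953) and Gsta3 (0.940). Fkbp5 and Zbtb16, which correlated with each other, had Zfp967 in common among their nearest (r = 0.885 and 0.868), beside Arih1 (0.836) and Eif1a (0.805, below the 0.811 of Zbtb16 itself) for Fkbp5 and Sgms1 (0.887) and Pds5a (0.848) for Zbtb16. Tsc22d3 was nearest to Lgi2 (0.903), Map3k6 (0.895) and Wdr43 (0.870), so that 1 known response gene stood among its nearest 3. Sgk1 was nearest to Coq10b (0.910), Klf4 (0.900) and Dlc1 (0.900), and Klf9 to Epc2 (0.904), Cacul1 (0.871) and Zrsr2 (0.862). Mt1 and Mt2 shared none of their nearest 3, which were Chp1, Psmc1 and Prpf31 (0.953, 0.953 and 0.947) for Mt1 and Pip5k1a, Kank3 and Lman1 (0.984, 0.964 and 0.959) for Mt2. All these values share the same 12 arrays and the same scaling.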

How the data were processed

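RNA of 12 descending aortas was hybridised to Agilent 1-colour (Cy3) arrays. Per the file headers, the authors extracted the scans with Agilent Feature Extraction 10.7.1.1 under protocol GE1_107_Sep09 on array design 028005, with probe positions on build mm9. The deposited scanner files hold an intensity for each of 62976 spots, the processed green signal, and no gene spot was saturated. A deposited value table of log2 values, with each probe's median at 0 and its steps not given in the sources used here, served as an alternative. The direction of its columns follows the scanner values.

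The signal was taken to log2, spots marked as outliers were left out, replicate spots were averaged, and the 75th percentile of all gene probes of an array was subtracted from its values. Probes well above background on at least 6 of 12 arrays were kept (27583 of 55630), and the brightest probe of each gene was used (16853 genes). Probes were named through a RefSeq gene table of GRCm38.p6 by accession (26395) or symbol (4586), or kept the array's own name (4770), and 19879 stayed unnamed. Old and young mice were compared in limma 3.58.1 under R 4.3.3 (lmFit, then eBayes) with age as the only term and Benjamini-Hochberg adjustment over all genes. A gene is called where the adjusted p is under 0.05. Correlations were tested with 100000 permutations in Python 3.11.15 with numpy 2.4.6. The procedure was tested on simulated data.

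Besides the 10 members, the text names the 2 measured genes with the smallest p of each gene list described and every called gene in it, and the 3 named genes outside the members nearest to each member by Pearson's r, except that some results are not reported here. Genes of relations that passed the adjustment, and the examples of correlations, were chosen after their values were seen. The members and the 18 other lists were chosen with earlier results of these data known. Alternatives were other background corrections and scalings, the deposited table, other filters, slide and replicate as blocks, each slide alone, other variance and probe settings, and each array left out. Probes were not placed in exons, since no annotation of mm9 was used here. No 2 arrays were alike (root mean square difference 0.287 to 0.543). The number of arrays limits the precision. The labels do not say whether the replicate numbers shared by the ages pair the mice, and the main comparison did not treat them as pairs.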

Additional observations from a re-analysis of the deposited data

Results flagged for a closer look

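Among the 24 sets of 6 values of the members' probes by age, 1 held a mouse far from the others. The dimmer probe of Nr3c1 read 1.09 in 6 months replicate 1, where the nearest other mouse of that age read 0.868, a gap that takes up 0.851 of the range of the 6 (Dixon's limit is 0.625). The brighter probe of Nr3c1 also had its highest 6-month value in that mouse, at 4.97. Chance marks about 1 in 20 such sets. The array has high heart muscle markers, whose part in this value was not tested.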

How the results depend on the processing

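No member passed the threshold in any of 29 other settings (0 of 292 values, lowest adjusted p 0.362 by limma). The direction was kept in 255 values and turned in 37, none of these larger than 0.334 in size. It turned for Mt1 under quantile normalization (0.0212) and in the authors' deposited table (0.0213), and for Zbtb16 under median scaling (0.00344) and on leaving out the 3 arrays rich in heart muscle or T cell markers (0.0562). On slide 1 alone it turned for Nr3c1 (0.0101), Fkbp5 (-0.21), Tsc22d3 (-0.13), Sgk1 (-0.23) and Mt1 (0.0327), on slide 2 alone for Nr3c2 (-0.33), Zbtb16 (0.0623) and Klf9 (0.11), and on slide 3 alone for Zbtb16 (0.0385) and Klf9 (0.13). On leaving out 6 months replicate 4 and 20 months replicate 5, which had the most detected probes, it turned for Nr3c2 (-0.00382) and Fkbp5 (-0.00733). With 1 array left out at a time the change ran from -0.0400 to 0.16 for Fkbp5, -0.12 to 0.19 for Hsd11b1, -0.15 to 0.00180 for Klf9, -0.13 to 0.0326 for Mt1, -0.19 to 0.0727 for Mt2, -0.0835 to 0.0878 for Nr3c2 and -0.0910 to 0.0307 for Zbtb16.

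Over all genes the 53 calls became 33 under median scaling, 23 with no filter, 1, 1 and 0 on slides 1, 2 and 3 alone (fewer samples), 30 without the 3 arrays, 15 without the 2 arrays and 21 to 59 with 1 array left out. With the replicate number as a block there were 6 calls and none among the members, and Pgf was no longer called (adjusted p = 0.200). The labels do not say whether same-numbered mice are paired. Their deviations from the age means correlated at -0.36 to 0.32, which cannot decide it.

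The 2 correlated pairs became 1 with normexp background correction, 1 with each age's mean removed, 1 without the 3 arrays, 1 without the 2 arrays, 0 without the 2 arrays farthest from the median of the first gene and 1 to 2 with 1 array left out, and they became 3 with age and slide means removed. The settings without the 3 or the 2 arrays were chosen after seeing the data. Where arrays were left out their number was also smaller, and the cause of these differences was not tested.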
